A study of Mus musculus with 4 samples.

Results

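The extracellular proteases of the matrix metalloproteinase (MMP), ADAM and ADAMTS families, the ADAMTS-like (ADAMTSL) proteins and the tissue inhibitors of metalloproteinases (TIMPs) were examined in cultured osteocytes from mice without and with PPARα. The set holds every gene in the count table whose symbol begins with Mmp, Adam, Adamts, Adamtsl or Timp followed by a digit and whose counts summed to at least 40 over the 4 libraries. Of 84 symbols of that form among 37411 genes in the table, 47 reached this sum: 16 of 23 MMP, 12 of 33 ADAM, 12 of 19 ADAMTS, 4 of 5 ADAMTSL and 3 of 4 TIMP genes. Another 16 symbols had no count in any library and 21 had between 1 and 39 counts. Adamts15, with 41 counts, lay just inside the threshold, and Adam1a, with 35, just outside it. Timp4 had 5 counts in all, and Mmp1a had 5, each of them in WT replicate 2.

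The libraries were RNA of femoral cell fractions enriched in osteocytes by sequential collagenase digestion, 2 from PPARα knockout (αKO) and 2 from wild-type (WT) mice. The labels give strain C57BL/6, an age of 5 months, 6 days of growth outside the body and no treatment for all 4. In the methods of the study the αKO mice are a global knockout on a 129S4/SvJae background, in which a neomycin cassette replaced part of a coding exon, so no cell type of these animals carries the intact gene. The titles call the 2 libraries of each genotype biological replicates and do not say whether each came from 1 animal or from a pool.

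Library totals ran from 25136628 to 27496137 counts. Ppara had 15 and 9 counts in αKO and 16 and 13 in WT libraries, with a log2 fold change of αKO over WT (log2FC) of -0.23 (standard error 0.61); counts over the whole gene do not check an allele that can leave its other exons in the transcript. Of 11 osteocyte markers, Sost and Fgf23 had no counts and Mepe and Dkk1 were under 40 counts in sum. The 7 measured included Dmp1 at 0.877 to 17.5 CPM, Pdpn at 31.7 to 201 CPM and Cd44 at 302 to 469.9 CPM. The 11 summed to 529 and 388 CPM in αKO and to 813 and 769 CPM in WT libraries, most of it Cd44 in each library. Macrophage markers summed to 32280 and 27200 CPM (counts scaled to library size) in αKO and to 21580 and 12620 CPM in WT libraries. Most of it was Lyz2 in each library. Osteoblast markers summed to 27900 and 24710 CPM in αKO and to 32340 and 28900 CPM in WT libraries. The largest part of it was Spp1, at 15090 and 10710 CPM in αKO and 13760 and 12890 CPM in WT libraries. The cultures thus held RNA of several cell types. In such bulk samples fewer cells of a type and less RNA per cell cannot be told apart. Here αKO osteocytes and WT osteocytes are names for these mixed cultures, as in the library titles, and not for osteocytes alone.

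MMPs are zinc endopeptidases, most of them secreted as inactive precursors, which cut collagens, proteoglycans and other proteins of the matrix. ADAMs are membrane-anchored relatives that release the outer parts of receptors, growth factors and cytokines, ADAMTS proteases are secreted enzymes that process procollagen and cleave proteoglycans, and ADAMTSL proteins resemble the ADAMTS ancillary part without a protease domain. TIMPs bind the active site of these enzymes and block it; Timp3 stays in the matrix and also inhibits several ADAM and ADAMTS enzymes. In bone, collagenolysis by MMPs takes part in matrix turnover, in growth plate remodelling and in the remodelling of the matrix around osteocytes.

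Averaged over the 4 libraries, the inhibitors were the most abundant transcripts of the set. In TPM, a transcript level scaled by gene length and library size that can be compared between genes, Timp1 averaged 1725 over the 4 libraries, Timp2 1029 and Timp3 795. Mmp12, the macrophage elastase, averaged 794 TPM, Adam8 670, the membrane-type enzyme Mmp14 611, the collagenase Mmp13 558 and the gelatinase Mmp2 416 TPM. Neighbours in this order overlapped in their libraries: Timp1 ranged from 820 to 3328 TPM and Mmp12 from 547 to 1475 TPM. The order did not hold in the αKO libraries. There Timp3, at 497 and 283 TPM, lay below Mmp12 (547 and 578 TPM), Adam8 (907 and 766 TPM) and Mmp14 (505 and 451 TPM). Adam8 also lay above Timp2 (699 and 700 TPM) in both αKO libraries. Adam15 and Adam9 led the rest with 250 and 190 TPM, and the sheddases Adam17 and Adam10 followed Mmp23 with 107 and 96.6 TPM. The ADAMTS family lay lower, led by Adamts2 at 47.9 TPM, and Adamts15 was lowest of the 47 at 0.166 TPM. Among all genes in the table Timp1 ranked 48th by mean TPM, Timp2 112th, Timp3 158th and Mmp12 159th. Together the 47 genes took 0.601% and 0.546% of all TPM in αKO and 0.941% and 1.04% in WT libraries.

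**Figure D1:**
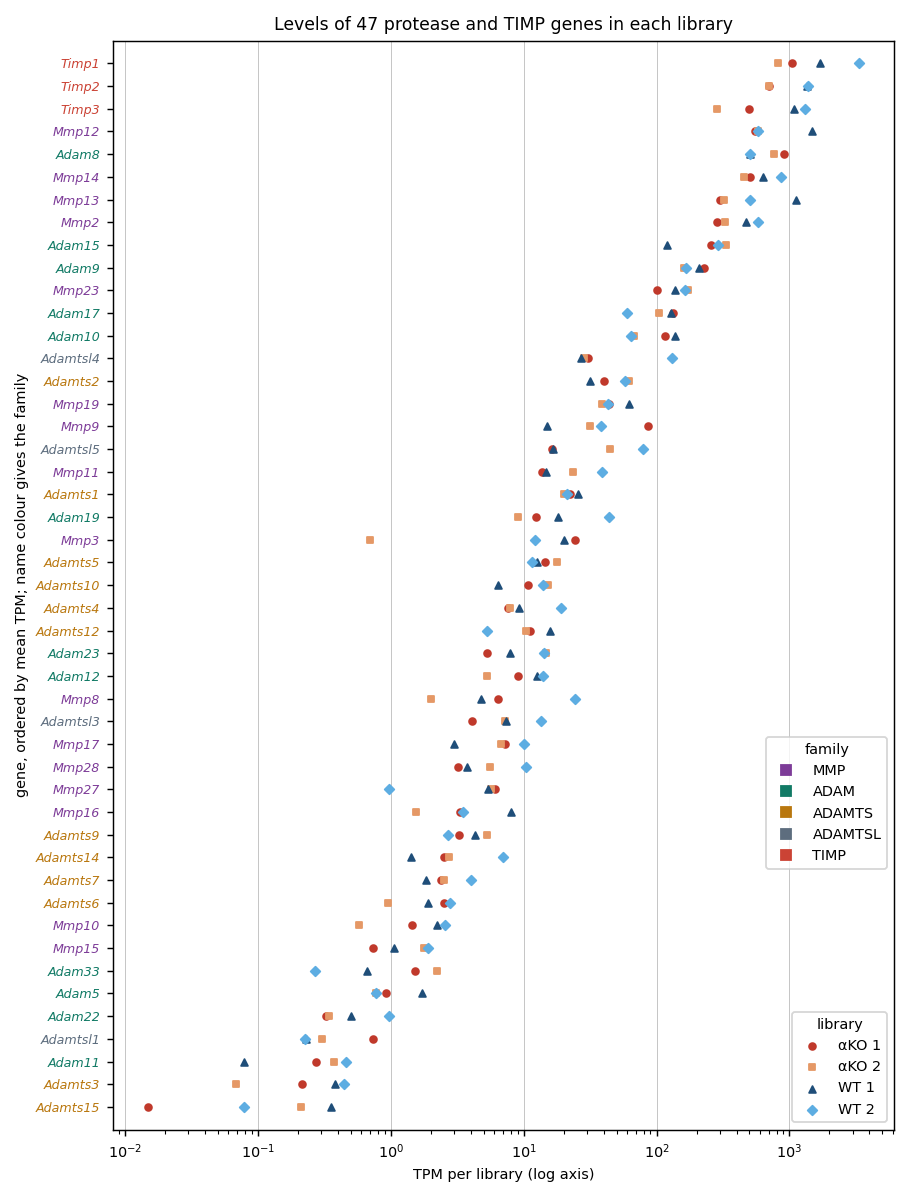
TPM of each of the 47 genes in each of the 4 libraries on a log axis, ordered by mean TPM, with the colour of a gene's name giving its family. The 3 TIMP genes head the order, and Mmp3 in αKO replicate 2 stands far to the left of its other libraries.

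Genotypes were compared gene by gene with the quasi-likelihood test of edgeR, and the Benjamini-Hochberg adjustment ran over all 13571 genes tested. None of the 47 genes passed an adjusted p of 0.05, as none of all genes tested did (0.0%); DESeq2 and edgeR's likelihood ratio test passed none of the 47 either. At an unadjusted p under 0.05 stood 7 of the 47 genes, against 5.39% of all genes. Of these, 5 were lower in αKO osteocytes (Timp1, Timp2, Timp3, Mmp13 and Adam19), against 2.59% of all genes, and 2 were higher (Adam8 and Adam33), against 2.81%. Over the whole set 28 of 47 genes had a log2FC under 0, against 50.8% of all genes tested, with a median of -0.30 against -0.01. In 11 of the 47 both αKO libraries lay below both WT libraries, against 16.0% of all genes, and in 5 both lay above, against 17.1%. The 11 were the 3 TIMPs, Mmp2, Mmp10, Mmp13, Mmp14, Adam12, Adam19, Adam22 and Adamts3, and the 5 were Mmp27, Adam8, Adam33, Adamts5 and Adamtsl1. Without the TIMPs, 25 of 44 genes were lower, with a median of -0.19.

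**Figure D2:**
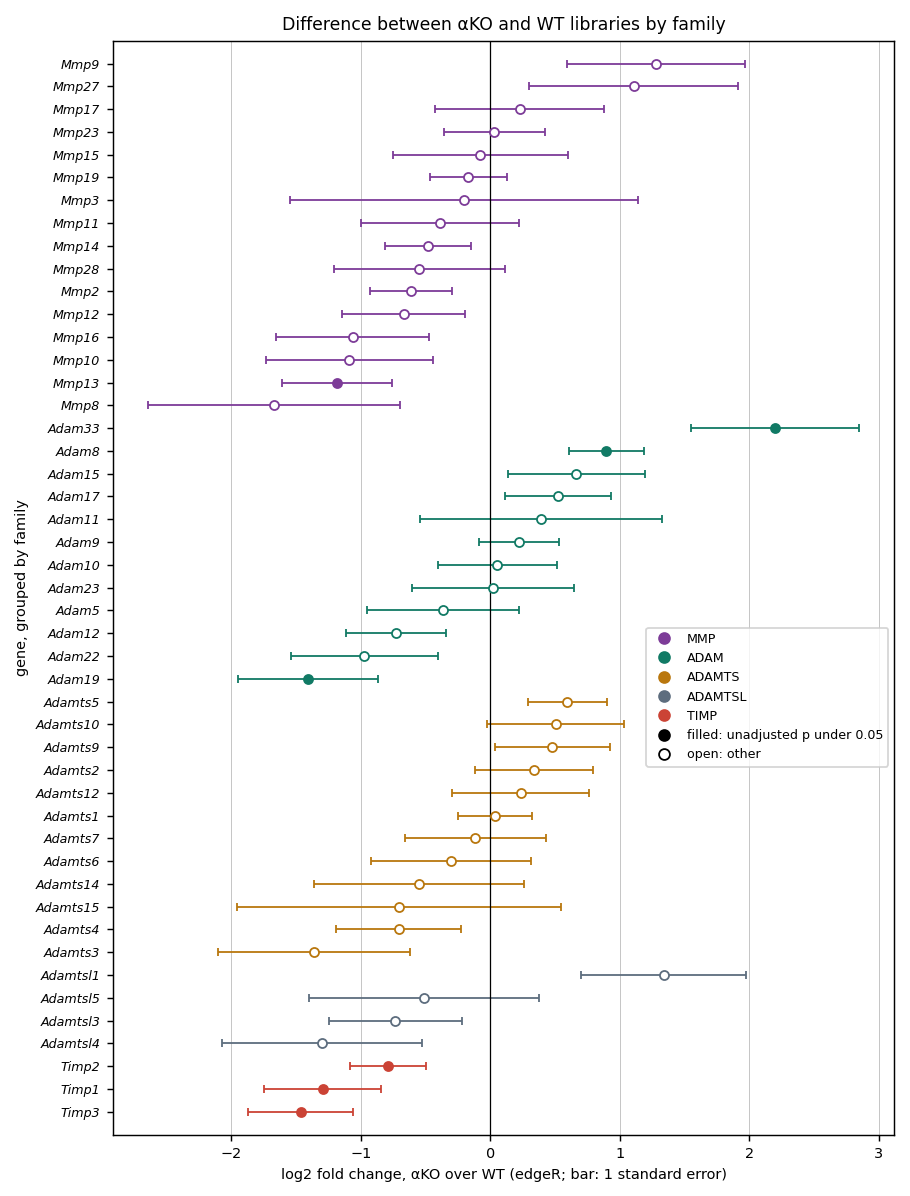
Log2FC of αKO over WT for each of the 47 genes, grouped by family, with bars of 1 standard error from edgeR and filled points for an unadjusted p under 0.05. All 3 TIMP genes lie left of 0, between -1.47 and -0.79, while 8 of 12 ADAM genes lie right of it.

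All 3 TIMPs were lower in αKO osteocytes, and for each of them both αKO libraries lay below both WT libraries. Timp3, the inhibitor bound to the matrix, stood at 1016 and 596 CPM in αKO replicates 1 and 2 and at 1903 and 2550 CPM in WT replicates 1 and 2. Its lower WT library was thus well above its higher αKO library, and the log2FC was -1.47 (standard error 0.40, unadjusted p = 0.0142, adjusted p = 0.902 by edgeR), or 2.76-fold lower. Timp1, a secreted inhibitor also known as a cytokine-like growth factor, stood at 399.9 and 325 CPM in αKO and at 567 and 1211 CPM in WT osteocytes. The WT libraries differed by 2.13-fold from each other, nearly as much as the genotypes, whose log2FC was -1.29 (standard error 0.45, unadjusted p = 0.0339, adjusted p = 0.902 by edgeR). Timp2, which blocks Mmp2 and at low amounts also takes part in its activation by Mmp14, was the steadiest of the 3 between replicates. It stood at 1122 and 1160 CPM in αKO and at 1862 and 2084 CPM in WT osteocytes, a log2FC of -0.79 (standard error 0.30, unadjusted p = 0.0423, adjusted p = 0.909 by edgeR).

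With 1 library left out at a time, Timp3 stayed between -1.90 and -1.12 and Timp2 between -0.85 and -0.74. Timp1 ran from -1.72 without WT replicate 1 to -0.68 without WT replicate 2. Timp3 is transcribed within Syn3, which lies on the opposite strand and overlaps 21.3% of its exonic bases; Syn3 had 3 counts in αKO replicate 1 and none elsewhere. On 2 libraries against 2, an exact permutation test allows no two-sided p under 0.333, so no single-gene permutation test could pass. Most osteoblast and osteocyte markers were lower alongside the TIMPs. Of 15 osteoblast markers 14 had a log2FC under 0, against 50.8% of all genes. At an unadjusted p under 0.05 by edgeR 5 were lower, against 2.59% of all genes. Spp1, Col1a2 and Col1a1, among the most abundant of that list, were flat, with log2FC values of -0.047, -0.050 and 0.002. All 7 of the osteocyte markers tested had a log2FC under 0. The part of either list in the TIMP result was not tested.

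**Figure D3:**
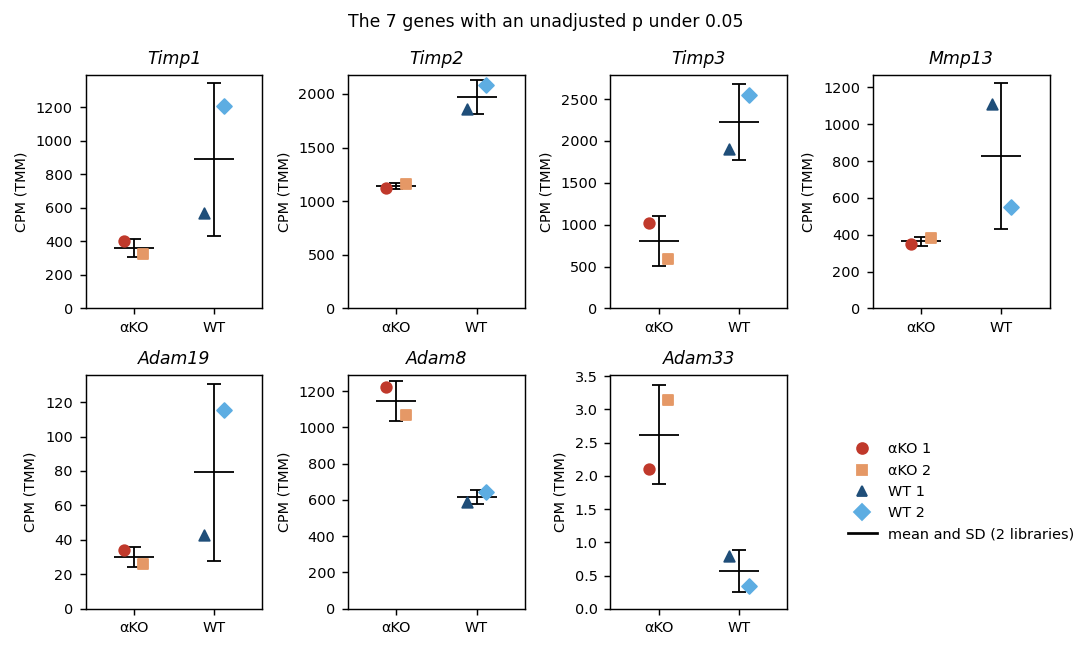
CPM (scaled by TMM) of the 7 genes with an unadjusted p under 0.05, with 1 point per library and bars for the mean and SD of 2 libraries, on axes that start at 0. In each panel both αKO points lie on the same side of both WT points; the WT points of Timp1, Mmp13 and Adam19 lie far apart.

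Of the collagenases, which cut triple-helical collagen, Mmp13 is the main enzyme of mouse bone. It stood at 348 and 381 CPM in αKO and at 1109 and 549 CPM in WT osteocytes, a log2FC of -1.19 (standard error 0.42, unadjusted p = 0.0367, adjusted p = 0.902 by edgeR). The αKO libraries agreed closely and both lay below WT, but the 2 WT libraries differed by 2.02-fold, and without WT replicate 1 the log2FC was -0.57. Mmp8, the collagenase stored by neutrophils, stood at 6.78 and 2.22 CPM in αKO and at 4.35 and 24.4 CPM in WT osteocytes. Its genotypes overlapped, and its fold change rested on WT replicate 2, without which it was 0.01 in place of -1.67. Neutrophil markers were near the floor, at 8.04 to 11.5 CPM summed over the list, with 6 of 10 under 40 counts, Ly6g, Mpo and Elane among them.

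The gelatinases cleave denatured collagen and type IV collagen. Mmp2 stood at 375 and 445 CPM in αKO and at 535 and 719 CPM in WT osteocytes, without overlap, a log2FC of -0.61 (standard error 0.31, unadjusted p = 0.107, adjusted p = 0.967 by edgeR). Its activator Mmp14, a membrane-anchored collagenase, stood at 568 and 524 CPM in αKO and at 611 and 912 CPM in WT osteocytes, also without overlap and with a log2FC of -0.48 (standard error 0.33, unadjusted p = 0.206). Mmp9, a gelatinase of osteoclasts and macrophages, went the other way in the mean but overlapped: 118 and 45.1 CPM in αKO and 17.6 and 49.6 CPM in WT osteocytes. Its log2FC was 1.28 (standard error 0.69), and with 1 library left out it ran from 0.43 without αKO replicate 1 to 2.17 without WT replicate 2. All 17 macrophage markers had a log2FC above 0, and their part in the Mmp9 level was not tested. Osteoclast markers had no common direction, 5 of 8 being higher and 3 lower, with sums of 668 and 614 CPM in αKO and of 1144 and 756 CPM in WT libraries.

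Mmp12, the macrophage elastase, was at 943 and 1029 CPM in αKO and at 2192 and 940 CPM in WT osteocytes. WT replicate 2 lay level with both αKO libraries, so the log2FC of -0.67 (standard error 0.47, unadjusted p = 0.217) came from WT replicate 1 and turned to 0.09 without it. The summed macrophage markers were likewise higher in WT replicate 1 than in WT replicate 2 (21580 and 12620 CPM), and highest in the αKO libraries; their part in the Mmp12 level was not tested. Among the stromelysins, Mmp3 was named after its values were seen: it had 494 counts in αKO replicate 1 but 14 in αKO replicate 2, with 358 and 232 in the WT libraries. Its log2FC was -0.20 (standard error 1.35) and turned to 0.76 without αKO replicate 2. Mmp10, which shares 8.4% of its 50-base words with Mmp3, had a log2FC of -1.09, without overlap between genotypes. Mmp11 overlapped, with a log2FC of -0.39. Neither Mmp10 nor Mmp11 had an unadjusted p under 0.05 by edgeR. Mmp27, whose role is little known, stood at 4.57 and 4.44 CPM in αKO, at 3.48 CPM in WT replicate 1 and at 0.693 CPM in WT replicate 2. The other 6 MMPs (Mmp15, Mmp16, Mmp17, Mmp19, Mmp23 and Mmp28) all overlapped between genotypes, with log2FC values from -1.06 in the membrane-type Mmp16 to 0.23 in Mmp17, which is tethered by a lipid anchor. In all 12 of 16 MMP genes were lower in αKO osteocytes, with a median log2FC of -0.43, and 1 of them, Mmp13, had an unadjusted p under 0.05.

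Adam8, a sheddase of myeloid cells and osteoclasts, was the most abundant ADAM and higher in αKO osteocytes. It stood at 1223 and 1066 CPM in αKO and at 587 and 642 CPM in WT osteocytes, with the libraries of each genotype close together. The log2FC was 0.90 (standard error 0.29, unadjusted p = 0.0267, adjusted p = 0.902 by edgeR), and between 0.79 and 1.00 with any 1 library left out. All 17 macrophage markers were higher in αKO osteocytes as well, 7 of them at an unadjusted p under 0.05 by edgeR, against 2.81% of all genes. Between the WT libraries the summed macrophage markers differed, at 21580 CPM in replicate 1 and 12620 CPM in replicate 2. Adam8 did not follow them there (587 and 642 CPM). The part of these markers in the Adam8 result was not tested. Adam33, a catalytic ADAM of mesenchymal cells, was 4.59-fold higher at a low level, 2.10 and 3.15 CPM against 0.787 and 0.346 CPM (log2FC 2.20, standard error 0.65, unadjusted p = 0.0184). It had 55 and 78 counts in αKO and 21 and 9 in WT libraries.

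Adam19, a sheddase that acts on neuregulin, stood at 33.99 and 25.7 CPM in αKO and at 43.0 and 116 CPM in WT osteocytes (log2FC -1.41, standard error 0.54, unadjusted p = 0.0463). The groups did not overlap, but WT replicate 2 set the size, and without it the log2FC was -0.57. Neither of the broad sheddases had an unadjusted p under 0.05: Adam10, the alpha-secretase that also cleaves Notch receptors, had a log2FC of 0.05 (standard error 0.46) and Adam17, the TNF converting enzyme, of 0.52 (standard error 0.41). Adam10 stood at 231 and 139 CPM in αKO and at 237 and 121 CPM in WT osteocytes, so that replicates 1 were high in both genotypes. Adam17 stood at 259 and 211 CPM in αKO and at 217 and 110 CPM in WT osteocytes, with WT replicate 2 alone set apart. Adam15, a catalytic ADAM, stood at 332 and 439.6 CPM in αKO and at 132 and 355 CPM in WT osteocytes. Adam9 had a log2FC of 0.22 (standard error 0.31). Opposite-strand transcripts cover 20.6% of the exonic bases of Adam15 and 15.0% of those of Adam19. Of the ADAMs without a catalytic motif, which act in adhesion and at synapses, Adam11, Adam22 and Adam23 were measured and none had an unadjusted p under 0.05. Adam12, a sheddase of muscle and fat precursors, stood at 30.2 and 18.2 CPM in αKO and at 36.0 and 44.1 CPM in WT osteocytes, without overlap (log2FC -0.73, standard error 0.38). Adam5, a gene of the testis, was near 1 CPM in 3 libraries and at 2.02 CPM in WT replicate 1. In the family 8 of 12 genes were higher, with a median log2FC of 0.14.

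No ADAMTS or ADAMTSL gene had an unadjusted p under 0.05. The proteoglycanases cleave aggrecan and versican. Adamts5, the main aggrecanase of mouse cartilage, stood at 50.5 and 64.4 CPM in αKO and at 38.05 and 37.99 CPM in WT osteocytes, and was the member of this group without overlap (log2FC 0.60, standard error 0.30, unadjusted p = 0.104). Adamts4 stood at 15.9 and 17.1 CPM in αKO and at 16.4 and 37.5 CPM in WT osteocytes, and Adamts1 was flat in all 4 libraries, between 42.3 and 47.5 CPM (log2FC 0.04, standard error 0.29). Of the procollagen N-proteinases, which trim fibrillar procollagens, Adamts2 stood at 126 and 201 CPM in αKO and at 85.8 and 173 CPM in WT osteocytes, high in replicates 2 of both genotypes. Its log2FC was 0.34 (standard error 0.46). Adamts14 was at 5.64 and 6.33 CPM in αKO and at 2.73 and 14.9 CPM in WT osteocytes, with the αKO libraries between the WT libraries. The COMP-cleaving Adamts7 and Adamts12, the fibrillin-related Adamts6 and Adamts10 and the proteoglycanase Adamts9 overlapped between genotypes, with log2FC values from -0.30 in Adamts6 to 0.50 in Adamts10. Adamts3, a procollagen N-proteinase, did not overlap, at 0.495 and 0.161 CPM in αKO and 0.749 and 0.962 CPM in WT osteocytes. These are few counts. Adamts15, nearest the count threshold, had 1 and 14 counts in αKO and 21 and 5 in WT libraries, too few to detect a difference.

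Adamtsl3, Adamtsl4 and Adamtsl5 were each highest in WT replicate 2. Adamtsl4, a matrix protein that binds fibrillin microfibrils, stood at 53.2 and 51.7 CPM in αKO and at 40.6 and 218 CPM in WT osteocytes, and its log2FC went from -1.30 to 0.33 without WT replicate 2. Adamtsl5 stood at 15.0 and 42.3 CPM in αKO and at 13.1 and 68.6 CPM in WT osteocytes, and Adamtsl3 at 12.9 and 23.5 against 20.1 and 40.5 CPM. Adamtsl1 was higher in both αKO libraries, at 2.63 and 1.13 CPM against 0.712 and 0.770 CPM (log2FC 1.34, standard error 0.64, unadjusted p = 0.0872). The summed level of the chondrocyte markers was also highest in WT replicate 2, at 249.7 CPM there and 39.3, 82.0 and 25.4 CPM in αKO replicates 1 and 2 and WT replicate 1. Col2a1 made up 208 CPM of it, and Comp was highest in αKO replicate 2. The summed fibroblast and smooth muscle markers were highest in WT replicate 2 as well, at 5642 CPM. They stood at 3944 and 2844 CPM in αKO replicates 1 and 2 and at 2511 CPM in WT replicate 1. The part of either list in the ADAMTSL levels was not tested.

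Summed over each family, the TIMPs reached 2237 and 1803 TPM in αKO and 4137 and 6017 TPM in WT osteocytes, and the MMPs 1935 and 1969 TPM in αKO and 3966 and 2863 TPM in WT osteocytes. Both sums were lower in both αKO libraries. The ADAM sum was higher, with 1669 and 1462 TPM in αKO and 1140 and 1158 TPM in WT osteocytes. Adam8 made up most of it in both αKO libraries (907 and 766 TPM) and stood at 505 and 503 TPM in WT libraries. The ADAMTS sum overlapped between genotypes, from 112 to 146 TPM, and so did the ADAMTSL sum, from 51.1 to 224 TPM. The ratio of TIMP to MMP transcripts was 1.16 and 0.916 in αKO and 1.04 and 2.10 in WT libraries, so it did not separate the genotypes.

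**Figure D4:**
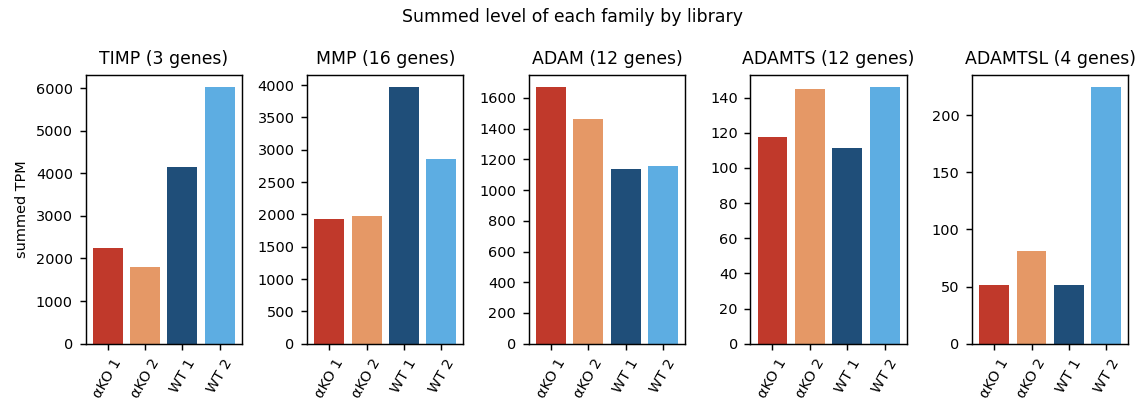
Summed TPM of each family in each library, with bars from 0 and a separate scale per panel. Both αKO bars lie below both WT bars for TIMPs and MMPs and above them for ADAMs, and WT replicate 2 stands alone for the ADAMTSL genes.

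The 2 WT libraries lay farther apart than the 2 αKO libraries. Over the 47 genes the median size of the log2 difference was 1.01 between the WT libraries and 0.45 between the αKO libraries, against 0.67 and 0.30 over all genes. In 33 of 47 genes the WT libraries differed from each other by more than the genotypes did, as in 72.0% of all genes tested; the TIMPs were not among those 33. The widest gaps between the WT libraries were those of Mmp8 (5.53-fold), Adamtsl4 (5.36-fold), Adamts14 (5.31-fold), Adamtsl5 (5.21-fold) and Mmp27 (4.62-fold). WT replicate 2 was the highest of the 4 libraries in 22 of the 47 genes, or 46.8%, against 31.1% of all genes.

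This gap followed base composition. GC content was that of the longest annotated transcript of each gene. Across the 47 genes Spearman's rho between it and how far WT replicate 1 exceeded WT replicate 2 on the log2 scale was -0.60. Across 13167 genes the rho was -0.71, and between the αKO libraries it was -0.47 over the 47 genes. All points share the same libraries, so these are descriptions. For the genotype fold change the rho was 0.18 over the 47 genes. Mmp12, with 40.3% GC, and Mmp13, with 41.7%, were higher in WT replicate 1, while Adamtsl4, with 60.1%, was higher in WT replicate 2. Mmp8, with 43.4% GC and the widest gap, went against this order and was higher in WT replicate 2. With an offset for GC content in the fit, the log2FC was -1.35 for Timp1, -0.94 for Timp2, -1.45 for Timp3, -0.995 for Mmp13, -1.44 for Adam19, 0.69 for Adam8 and 1.63 for Adam33.

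**Figure D5:**
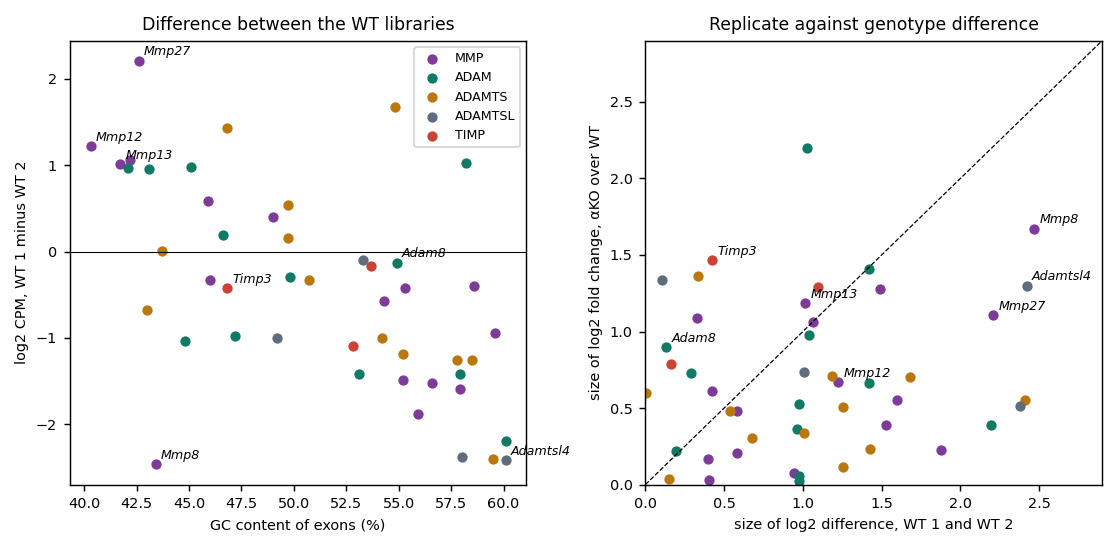
Left, log2 CPM of WT replicate 1 minus WT replicate 2 against GC content for the 47 genes, coloured by family. GC content is that of the exons of each gene's longest transcript. Right, the size of the log2FC between genotypes against the size of the log2 difference between the WT libraries, with a dashed line where they are equal. Of the 47 genes 33 lie under the line, and Timp3 and Adam8 lie above it.

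With WT replicate 1 left out, 6 of the 47 genes passed an adjusted p of 0.05 by edgeR, against 5.74% of all genes: Timp1, Timp3, Adam19, Adamtsl4 and Mmp8 were lower in αKO osteocytes and Mmp27 higher. With WT replicate 2 left out, 5 passed, against 4.88% of all genes: Timp3, Mmp12 and Mmp13 were lower and Adam15 and Mmp9 higher. Timp3 was the gene in both lists. Without either αKO replicate none of the 47 passed. In these fits the lone library of a genotype is assumed to vary like the pair of the other, so each compares that library with the pair.

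Promoters are shown for genes at an unadjusted p under 0.05 whose RefSeq start (GRCm38.p6) was given and whose window lay outside the annotated gene, as context for the members that differed most. RefSeq windows were given for 30 of the 47 genes. The 250 bases before the start were searched on both strands for the AP-1 motif TGANTCA, the RUNX motif TGTGGT, the GC box GGGCGG and the PPAR response element, a direct repeat of the nuclear receptor half-site with a 1-base spacer. Matches are in capitals, and 5′ is on the left.
Mmp13 (chr9:7272264-7272513, + strand): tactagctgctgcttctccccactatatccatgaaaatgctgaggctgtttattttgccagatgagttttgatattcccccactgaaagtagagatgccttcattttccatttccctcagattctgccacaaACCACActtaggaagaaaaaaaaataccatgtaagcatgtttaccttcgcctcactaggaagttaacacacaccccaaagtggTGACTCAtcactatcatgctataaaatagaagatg
Adam19, first start (chr11:46054252-46054501, + strand): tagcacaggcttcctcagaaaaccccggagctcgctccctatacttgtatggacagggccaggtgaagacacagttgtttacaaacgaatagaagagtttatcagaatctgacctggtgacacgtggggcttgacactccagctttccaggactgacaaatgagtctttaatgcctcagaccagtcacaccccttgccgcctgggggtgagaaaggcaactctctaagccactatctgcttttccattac
Adam19, second start (chr11:46055734-46055983, + strand): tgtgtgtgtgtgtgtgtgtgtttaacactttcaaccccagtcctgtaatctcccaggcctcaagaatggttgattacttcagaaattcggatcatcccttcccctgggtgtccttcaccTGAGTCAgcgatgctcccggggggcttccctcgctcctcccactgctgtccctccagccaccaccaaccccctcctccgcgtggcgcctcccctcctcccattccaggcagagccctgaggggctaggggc
Timp1 (chrX:20869916-20870165, + strand): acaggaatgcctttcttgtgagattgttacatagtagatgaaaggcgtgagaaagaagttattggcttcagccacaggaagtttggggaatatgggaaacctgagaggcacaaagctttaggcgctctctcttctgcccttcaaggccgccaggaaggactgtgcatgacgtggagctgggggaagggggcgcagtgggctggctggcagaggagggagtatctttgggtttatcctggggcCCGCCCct
Adam8 (chr7:139992563-139992812, - strand): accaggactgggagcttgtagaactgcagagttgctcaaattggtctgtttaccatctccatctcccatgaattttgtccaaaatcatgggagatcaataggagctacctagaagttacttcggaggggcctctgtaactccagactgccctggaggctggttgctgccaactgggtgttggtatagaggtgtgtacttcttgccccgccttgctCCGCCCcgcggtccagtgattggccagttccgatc
The Mmp13 window holds an AP-1 match that begins 35 bases before the start and a RUNX match, on the other strand, that begins 118 bases before it. Of the Adam19 windows shown, that of the first start holds none of the 4 motifs and that of the second holds an AP-1 match 131 bases before the start; those of Timp1 and Adam8 hold a GC box 8 and 35 bases before it. An AP-1 match was present in 5 of the 30 genes (Mmp3, Mmp10, Mmp12, Mmp13 and Adam19), or 16.7%, against 5.89% of 10172 tested genes with a window. A RUNX match was present in 6 of the 30 genes against 1321 of the 10172, a GC box in 63.3% against 63.5%, and the PPAR response element in 0 of 30 against 0.0197%. For genes with several RefSeq starts a match in any window was counted.

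Other genes of the same system were read from lists of activators, inhibitors, ADAM partners, matrix substrates, shed proteins and transcription factors, and none of them passed an adjusted p of 0.05 by edgeR. Of 14 activators and proteases of the cascade tested, 7 were higher and 7 lower, and none had an unadjusted p under 0.05; Ctsb, cathepsin B, was the most abundant, at 15040 and 12630 CPM in αKO and at 10580 and 6071 CPM in WT osteocytes. Of 9 other inhibitors and clearance genes 7 were lower, against 50.8% of all genes, with a median log2FC of -0.70. Of them 1 was lower at an unadjusted p under 0.05 by edgeR, against 2.59% of all genes. It was Tfpi2, a Kunitz-type inhibitor, with 1.37 and 1.21 CPM in αKO and 3.86 and 3.04 CPM in WT osteocytes. The matrix substrates did not share a direction, with 6 of 16 higher, and Col1a1 and Col1a2, the chains of type I collagen, had log2FC values of 0.00 (standard error 0.46) and -0.05 (standard error 0.31). The 8 ADAM partners and glycan enzymes tested had a median of 0.09, with none at an unadjusted p under 0.05.

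Of 22 membrane proteins that ADAMs or MMPs shed, 11 were higher and 11 lower, with a median log2FC of -0.01. At an unadjusted p under 0.05 by edgeR 4 were higher, against 2.81% of all genes, and 1 was lower, against 2.59%. Cdh2, N-cadherin, a substrate of Adam10, stood at 70.8 and 79.6 CPM in αKO and at 158 and 201 CPM in WT osteocytes (log2FC -1.26, standard error 0.30, unadjusted p = 0.00742). Trem2, a lipid receptor of macrophages and osteoclasts, stood at 643 and 853 CPM in αKO and at 253 and 352 CPM in WT osteocytes (log2FC 1.31, standard error 0.34, unadjusted p = 0.0115). Csf1r and Il6ra, the receptors of macrophage colony-stimulating factor and interleukin-6, and the proteoglycan Sdc4 were also higher, by 1.91-fold, 2.44-fold and 1.78-fold. Csf1r is itself a macrophage marker here.

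Of 13 transcription factors known to act on MMP genes, 10 were lower in αKO osteocytes, against 50.8% of all genes, with a median log2FC of -0.325. At an unadjusted p under 0.05 by edgeR 3 were lower, against 2.59% of all genes. The 3 higher ones were the AP-1 genes Jun and Jund and the ETS factor Ets2, with log2FC values of 0.305, 0.35 and 0.56. Runx2, the osteoblast factor that activates Mmp13, stood at 29.7 and 27.8 CPM in αKO and at 74.7 and 57.3 CPM in WT osteocytes, without overlap (log2FC -1.20, standard error 0.31, unadjusted p = 0.0112). It is also one of the osteoblast markers above. Fosb, an AP-1 subunit, had a log2FC of -1.495 at 1.45 to 5.47 CPM. Etv4, an ETS factor, stood at 3.24 and 2.10 CPM in αKO and at 4.195 and 26.5 CPM in WT osteocytes, and its log2FC of -2.52 became -0.69 without WT replicate 2.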

How the data were processed

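Per the labels and the submitters' processing notes, reads were trimmed with Trimmomatic 0.35 and assigned to mm10 genes by HTSeq 0.9.1; the notes also name DESeq2 1.16.1 and R 3.4.0; the aligner, the annotation and the strand setting are not given in the sources used here. The deposited counts are whole reads per gene, not normalized, and the deposited TPM values were scaled by the authors for gene length and depth. The deposited normalized counts were not used, nor was the authors' comparison, whose columns hold fold changes and p-values and mention DMSO although the labels state that nothing was given. The study's methods give an age and a day of collection that differ from the labels, and RNA from another extraction reagent.

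Counts were filtered by filterByExpr (minimum count 10), normalized by TMM and tested with edgeR 4.0.16 in R 4.3.3 by the quasi-likelihood test, αKO against WT, with Benjamini-Hochberg adjustment over 13571 genes. All 47 genes of the set passed the filter. The standard error is the log2 fold change divided by the square root of its F value. Log2 CPM used a prior count of 2. Gene positions, GC content, overlap with other genes and words of 50 bases shared with other genes came from GENCODE on GRCm38, and promoter windows from RefSeq on GRCm38.p6; GC content was matched for 97.0% of the genes tested. Alternatives were RLE normalization, library sizes alone, no filter, a filter of 1 CPM in 2 libraries, DESeq2 1.42.0, the likelihood ratio test, limma 3.58.1 voom, a replicate block, a GC offset and leaving out each library. The members and gene lists were chosen with earlier results of these data known. Described genes were every TIMP, those with an unadjusted p under 0.05, the 3 most abundant of each protease family, the best-known enzymes, the 5 with the widest gap between WT libraries and those nearest the count threshold; all other members are given in less detail and were added after their values were seen.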

Additional observations from a re-analysis of the deposited data

How the results depend on the processing

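In the quasi-likelihood test of edgeR no gene of all tested passed an adjusted p of 0.05 and 732 had an unadjusted p under 0.05; DESeq2 passed 50 and the likelihood ratio test 28, none of them among the 47. With a replicate block 1 gene passed, none of the 47, and 9 of the 47 had an unadjusted p under 0.05, against 11.1% of all genes; with a GC offset 11 had, again against 11.1%. The labels do not say that equal replicate numbers mark a shared animal or batch, and the numbers were not taken to pair the libraries; deviations of same-numbered libraries correlated at r = 0.49 over all genes and 0.098 over the 47. Leaving out 1 library gave 1 to 806 genes past an adjusted p of 0.05, of them 0 to 6 of the 47, and 1 to 21 of the 47 at an unadjusted p under 0.05, against 1.65% to 22.8% of all genes; the highest counts came without a WT library. Over these 4 fits the median log2FC ran from -0.60 to -0.094 for MMPs, from 0.084 to 0.27 for ADAMs, from -0.011 to 0.12 for ADAMTS, from -1.24 to 0.71 for ADAMTSL genes and from -1.64 to -0.74 for TIMPs. The ADAMTS median, -0.04 in the report, was 0.13 with the filter of 1 CPM, 0.029 with voom and 0.025 with the replicate block. With library sizes alone, which moved the median of all genes to -0.095, Adamts1 turned to -0.053 and Adam10 to -0.047, and 32 of 47 genes were lower. Thresholds of 20 and 80 counts gave 53 and 44 genes.

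Without 1 library 23 of the 47 genes changed sign, against 55.2% of all genes. Among those described in detail, the log2FC ran from -1.19 to 0.093 for Mmp12, from -2.69 to 0.012 for Mmp8, from -0.023 to 0.44 for Adam9, from -0.39 to 0.64 for Adam10, from -0.076 to 0.14 for Adamts1, from -0.055 to 0.89 for Adamts2, from -1.29 to 1.09 for Adamts14, from -3.52 to 0.64 for Adamts15, from -2.03 to 0.33 for Adamtsl4 and from -1.43 to 1.09 for Adamtsl5; among the other 13 the widest range was that of Mmp3, from -4.30 to 0.76. None of the 7 genes at an unadjusted p under 0.05 changed sign in any of these fits. In each of the 7 both αKO libraries lay on the same side of both WT libraries. Leaving out 1 library could therefore hardly reverse their sign, and this does not test how steady they are. The cause of the sign changes was not tested. The libraries of 16 of the 47 genes did not overlap between genotypes (33.2% of all genes), 17 with RLE (33.2%) and 18 with library sizes alone (33.8%), alternatives chosen after the data were seen.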
